A study of Mus musculus with 4 samples.

Results

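The core pluripotency genes described here were Pou5f1, Nanog, Zfp42, Sall4, Zscan10, Utf1, Dppa2, Dppa4, L1td1 and Dppa5a. Every probe set annotated to 1 of these 10 genes alone was taken, which gave 14 probe sets of the 45101 on the array and 10 genes of 18194. No probe set held a member together with another gene. Their levels were measured in cells sorted by FACS from day-4.5 aggregates of a mouse Rax::GFP ESC line, in which GFP marks cells that express the rostral forebrain gene Rax. The aggregates were grown by SFEBq, a floating culture in serum-free medium without added growth factors, in which mouse ESCs turn into neuroectoderm. The presumptive caudal Rax::GFP- cells and the rostral Rax::GFP+ cells were each measured on 2 Affymetrix mouse arrays. Both groups came from the same reporter line and day, each array held RNA pooled from many aggregates, and the GFP- cells are all cells without the reporter signal rather than a type chosen by a marker of its own.

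Pluripotency is the state in which a cell can form all tissues of the embryo. It is held by transcription factors around Pou5f1 (also called Oct3/4), Sox2 and Nanog that bind each other's genes and many shared targets, and the members outside this centre are mostly genes that this network keeps active. The network is shut down as ESCs leave pluripotency for neuroectoderm, and its genes are lost at different times, with Nanog and Zfp42 known as early losses and Pou5f1 as a later one. Sall4 also acts in later organs, such as the limb and the heart.

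The 10 genes did not behave as one group. Of the 10, 9 were higher in GFP- cells by their most expressed probe set, and Sall4 did not pass the test. The differences ran from 0.21 for Sall4 to 3.51 for Nanog on the log2 scale, where 1 is a doubling. The median was 2.78, against 0.05 over all genes. Pou5f1 in GFP+ cells was at 15.7% of its level in GFP- cells, and the same share was 8.75% for Nanog, 56.5% for Zscan10 and 86.5% for Sall4. By probe set, 11 of 14 were higher in GFP- cells and 0 were lower (limma, adjusted p threshold 0.05). In the same fit 3.64% of all probe sets and 5.4% of all genes were higher in GFP- cells. All differences are GFP- minus GFP+, and the values are log2 values made by RMA.

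**Figure D1:**
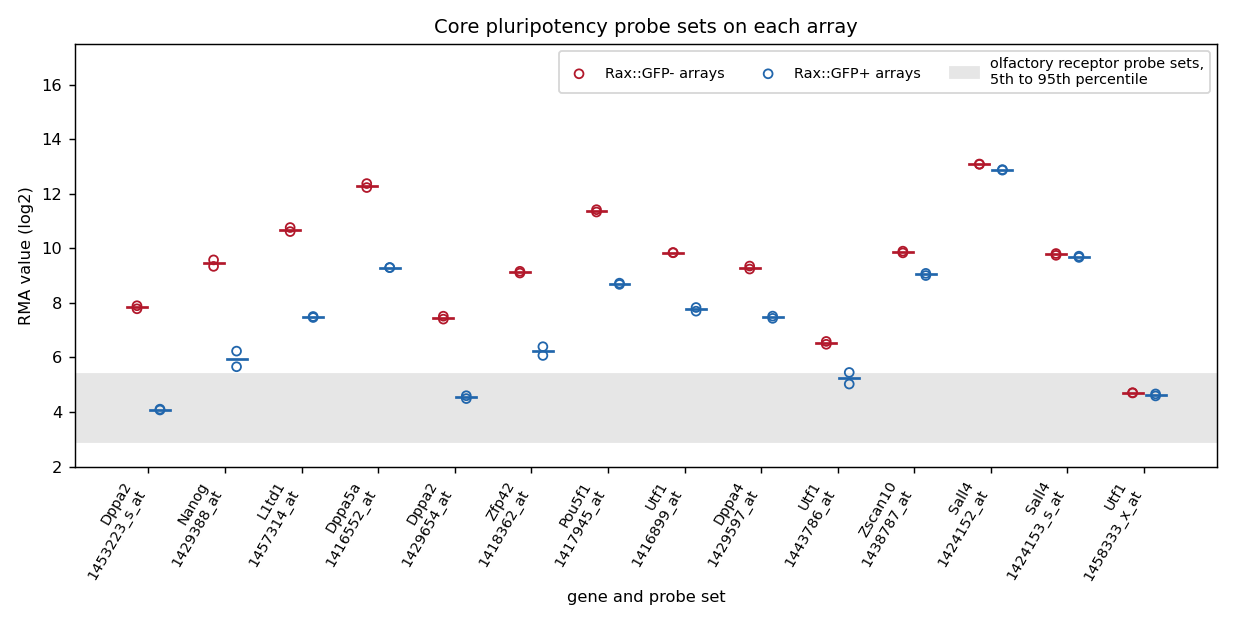
RMA log2 value (y axis) of each of the 14 probe sets of the core pluripotency genes (x axis, in order of their difference), with 1 open circle per array, red for Rax::GFP- and blue for Rax::GFP+, and a bar at the mean of the 2 arrays. The grey band spans the 5th to 95th percentile of 43 olfactory receptor probe sets (the lowest and the highest over the 4 arrays), and in GFP+ cells both Dppa2 probe sets lay inside it while the Sall4 probe sets stayed close to their values in GFP- cells.

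The sort was checked on its own markers. Rax, the eye field and forebrain homeobox gene behind the reporter, had log2 values of 8.58 and 8.88 in GFP- cells, against 10.70 and 10.86 in GFP+ cells (difference -2.05, limma adjusted p = 0.00785). Rax RNA was thus lower in GFP- cells but not at the bottom of the scale. Irx3, a caudal neural gene, differed by 2.59 (adjusted p = 0.0175) and Six3, a rostral gene, by -0.85 (adjusted p = 0.0389). Array medians were 5.84 and 5.86 for GFP- cells, against 5.89 and 5.88 for GFP+ cells. Since RMA sets all arrays to the same distribution, these values cannot show whether the groups differed in total RNA. In sorted pools of this kind, fewer cells of a type and less RNA per cell cannot be told apart, so a residual level is a mean over the cells of a pool.

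Pou5f1, the POU-domain factor at the centre of the network, was the gene against which the others were set. Its probe set (1417945_at) read 11.34 and 11.42 in GFP- cells, against 8.73 and 8.68 in GFP+ cells. The arrays of each group nearly coincided, and the groups were far apart. The difference was 2.67 (standard error (SE) 0.08, limma adjusted p = 0.00440), a 6.39-fold higher level in GFP- cells, and it was the 28th largest among the 18194 genes. The share of the GFP- level measured in GFP+ cells, 15.7%, had a 95% interval of 13.6% to 18.0%. The gene table lists 5 pseudogenes related to Pou5f1, 2 each to Nanog and Dppa5a and 1 to Zfp42, and a probe set could also read RNA from such copies, so the levels of these genes carry that uncertainty.

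Nanog, a homeobox factor of naive cells and early epiblast, gave 9.58 and 9.34 in GFP- cells, against 6.23 and 5.66 in GFP+ cells. Its difference of 3.51 (SE 0.22, limma adjusted p = 0.00761) was an 11.4-fold higher level in GFP- cells and the second largest of all 18194 genes. GFP+ cells held 8.75% of the GFP- level (95% interval 5.87% to 13.1%). The GFP+ arrays were 0.57 apart, the widest gap between replicates of any member, and that between the GFP- arrays was 0.24. Zfp42 (Rex1), a zinc finger factor related to Yy1 and long used as a marker of undifferentiated ESCs, read 9.16 and 9.10 in GFP- cells, against 6.40 and 6.07 in GFP+ cells. The difference was 2.89 (SE 0.13, adjusted p = 0.00551), and GFP+ cells held 13.5% of the GFP- level. For both genes every GFP- array lay far above both GFP+ arrays, and replicate 1 read higher than replicate 2 in both groups.

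Zscan10 and Sall4 were the factors that differed least. Zscan10 (Zfp206), a SCAN-domain zinc finger factor that acts with Pou5f1 and Sox2 in ESCs, read 9.84 and 9.90 in GFP- cells, against 9.01 and 9.09 in GFP+ cells. The difference was 0.82 (SE 0.08, limma adjusted p = 0.0144), so that GFP+ cells held 56.5% of the GFP- level (95% interval 49.1% to 65.2%). Without GFP+ replicate 1 the difference was 0.78 and no longer passed (adjusted p = 0.0612).

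Sall4, a spalt-family zinc finger factor that binds with Pou5f1 and Nanog in ESCs, was close to equal in the sorted groups. Its 1424152_at probe set read 13.08 and 13.10 in GFP- cells, against 12.87 and 12.89 in GFP+ cells. No GFP+ array reached a GFP- array, but the difference of 0.21 did not pass (SE 0.07, 95% interval 0.02 to 0.39, limma adjusted p = 0.153). It passed, at the same size, where limma let the prior variance follow intensity (adjusted p = 0.00862). The second probe set, 1424153_s_at, read 9.75 and 9.81 in GFP- cells, against 9.67 and 9.72 in GFP+ cells, a difference of 0.09 (adjusted p = 0.523). The data therefore bound the Sall4 difference at a small size rather than show that it was absent.

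Utf1, Dppa2 and Dppa4 encode chromatin-associated proteins of undifferentiated cells. Utf1, a histone-binding factor whose gene is a known target of Pou5f1 and Sox2, was read by 3 probe sets that gave different answers. At 1416899_at the values were 9.84 and 9.85 in GFP- cells, against 7.83 and 7.70 in GFP+ cells, a difference of 2.08 (SE 0.08, limma adjusted p = 0.00551). At 1443786_at they were 6.59 and 6.48 in GFP- cells, against 5.45 and 5.03 in GFP+ cells, a difference of 1.30 (adjusted p = 0.0245). At 1458333_x_at they were 4.70 and 4.71 in GFP- cells, against 4.66 and 4.59 in GFP+ cells, and the difference of 0.08 did not pass (adjusted p = 0.568). The 3 probe sets thus did not give a single value for the gene. The suffix _x_at marks probes that may also match other transcripts, and _s_at, as at the second Sall4 and Dppa2 probe sets, marks probes shared by several transcripts.

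Dppa2 and Dppa4 are neighbours on chromosome 16, with 0 genes listed between them, and encode SAP-domain proteins that form a complex on chromatin. The Dppa2 probe set 1429654_at read 7.41 and 7.51 in GFP- cells, against 4.60 and 4.49 in GFP+ cells, a difference of 2.92 (SE 0.09, limma adjusted p = 0.00440). Its second probe set, 1453223_s_at, read 7.79 and 7.90 in GFP- cells, against 4.11 and 4.07 in GFP+ cells, and its difference of 3.75 (SE 0.08, adjusted p = 0.00440) was the largest of the 14. Dppa4 read 9.24 and 9.35 in GFP- cells, against 7.52 and 7.44 in GFP+ cells. Its difference was 1.82 (SE 0.08, adjusted p = 0.00551), and GFP+ cells held 28.3% of the GFP- level (95% interval 24.3% to 32.9%). For Dppa2 that share was 13.3% (95% interval 11.3% to 15.5%) by the first probe set and 7.42% by the second. The 95% intervals of the neighbours' first probe sets did not overlap.

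L1td1 and Dppa5a encode proteins with RNA-binding domains. L1td1, derived from the first open reading frame of a LINE-1 element, read 10.62 and 10.77 in GFP- cells, against 7.50 and 7.47 in GFP+ cells. The difference was 3.21 (SE 0.09, limma adjusted p = 0.00440), the 6th largest of all genes, and GFP+ cells held 10.8% of the GFP- level (95% interval 9.24% to 12.7%). Dppa5a (Esg1), a small KH-domain protein, read 12.23 and 12.38 in GFP- cells, against 9.30 and 9.30 in GFP+ cells. The difference was 3.01 (SE 0.08, adjusted p = 0.00440), the 11th largest, with 12.4% of the GFP- level held in GFP+ cells (95% interval 10.6% to 14.5%). In both genes the GFP+ arrays lay within 0.04 of each other.

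Among all genes the members lay mostly at the upper end. A log2 difference above 2 was found for 89 genes, of which 7 were members, and one above 3 for 11 genes, of which 3 were members, namely Nanog, L1td1 and Dppa5a. Zscan10 ranked 545th and Sall4 3847th. The lowest GFP- array was above the highest GFP+ array at 14 of 14 member probe sets, including those that did not pass the test. At 32.5% of all probe sets the arrays were separated in this direction. For 2 arrays against 2, an exact permutation test of a single probe set cannot go below p = 0.333, so the p-values rest on the spread that limma shares across probe sets.

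**Figure D2:**
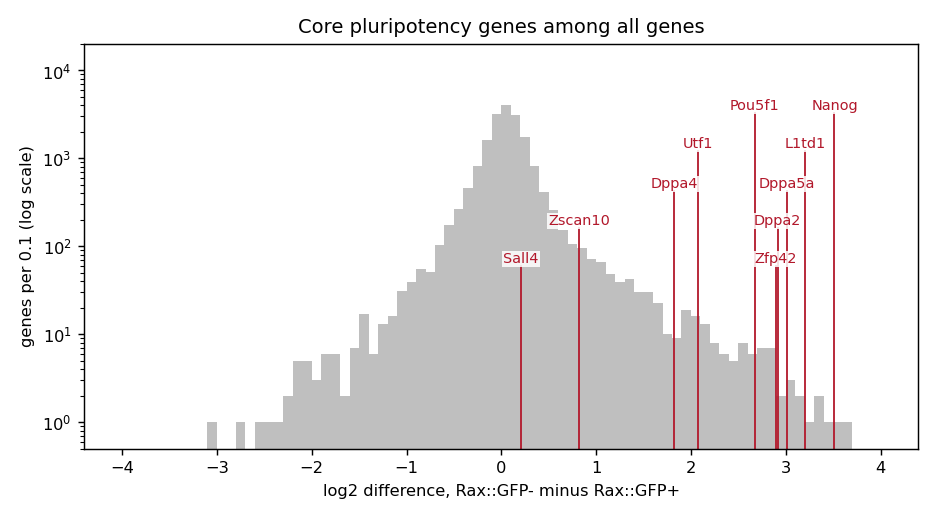
Number of genes (y axis, log scale) by log2 difference between Rax::GFP- and Rax::GFP+ cells in steps of 0.1 (x axis) for the 18194 genes, each by its most expressed probe set, with a red line at each core pluripotency gene. The lines at Nanog, L1td1 and Dppa5a stand past 3, while Sall4 at 0.21 lies within the bulk of all genes.

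How far each gene departed from Pou5f1 was tested directly, with limma on each probe set's log2 value minus that of Pou5f1 on the same array. Nanog, L1td1 and Dppa5a had larger differences than Pou5f1, and Utf1, Dppa4, Zscan10 and Sall4 had smaller ones, which made 7 of 9 genes. By probe set, 4 of 13 were larger and 7 of 13 smaller, with both Sall4 and all Utf1 probe sets among the smaller ones. Of these, Utf1 at 1458333_x_at read between 4.59 and 4.71 on all 4 arrays, in the range of the olfactory receptor probe sets. A probe set at that level can hardly show a difference like that of Pou5f1, so its departure says nothing about Utf1. In the same fit 99.8% of all probe sets had a smaller and 0.031% a larger difference than Pou5f1, so a smaller difference is the usual case for any gene on the array, and a larger one was met at 14 probe sets in all. Since almost all probe sets passed, the adjustment changes p-values near the threshold little. Adjusted p-values of that size against Pou5f1 are thus close to unadjusted ones.

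Sall4 stood furthest from Pou5f1. Its difference was smaller by 2.47 (difference of differences -2.47, 95% interval -2.71 to -2.22, limma adjusted p = 2.97e-07). Zscan10 followed with -1.85 (95% interval -2.11 to -1.60, adjusted p = 1.02e-06), then Dppa4 with -0.85 (95% interval -1.09 to -0.61) and Utf1 with -0.60 (95% interval -0.85 to -0.34). In the other direction, Nanog departed by 0.84 (95% interval 0.37 to 1.31, adjusted p = 0.00425), L1td1 by 0.53 (95% interval 0.29 to 0.78, adjusted p = 0.00141) and Dppa5a by 0.33 (95% interval 0.09 to 0.58, adjusted p = 0.0150). The Dppa5a call was lost without GFP+ replicate 1 (adjusted p = 0.0558) and without GFP- replicate 2 (adjusted p = 0.0718). Nanog passed with any 1 array left out, and its departure then lay between 0.58 and 1.10.

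Zfp42 and the most expressed Dppa2 probe set were not shown to depart from Pou5f1. For Zfp42 the difference of differences was 0.22 (95% interval -0.10 to 0.54, limma adjusted p = 0.143), and it passed without GFP+ replicate 1 (0.36, adjusted p = 0.0366). For Dppa2 it was 0.24 (95% interval -0.00 to 0.48, adjusted p = 0.0512), whereas the second Dppa2 probe set departed by 1.08 (95% interval 0.84 to 1.32). Probe sets of a single gene did not give equal differences. The gap was 0.84 for the Dppa2 pair, 0.12 for the Sall4 pair, and 0.78 and about 2 for the Utf1 probe sets 1443786_at and 1458333_x_at, each set against 1416899_at. The Dppa2 and Utf1 pairs hold values near the low end of the scale, described with the olfactory receptor probe sets, so these gaps do not measure how far probe sets of well expressed genes disagree. All departures also share the error of the Pou5f1 probe set itself.

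By the share of the GFP- level that GFP+ cells held, the order was Nanog (8.75%), L1td1 (10.8%), Dppa5a (12.4%), Zfp42 (13.5%), Pou5f1 (15.7%), Utf1 (23.7%), Dppa4 (28.3%), Zscan10 (56.5%) and Sall4 (86.5%). Dppa2 was left out of the order, since its GFP+ values lay in the range of olfactory receptor probe sets and its 13.3% may be too high. Nanog lay close to that range on GFP+ replicate 2 (5.66), so its 8.75% may be too high as well. The 95% intervals of neighbours overlapped from Nanog to Pou5f1, and again for Utf1 (20.3% to 27.5%) and Dppa4. They did not overlap between Pou5f1 and Utf1, between Dppa4 and Zscan10 or between Zscan10 and Sall4.

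**Figure D3:**
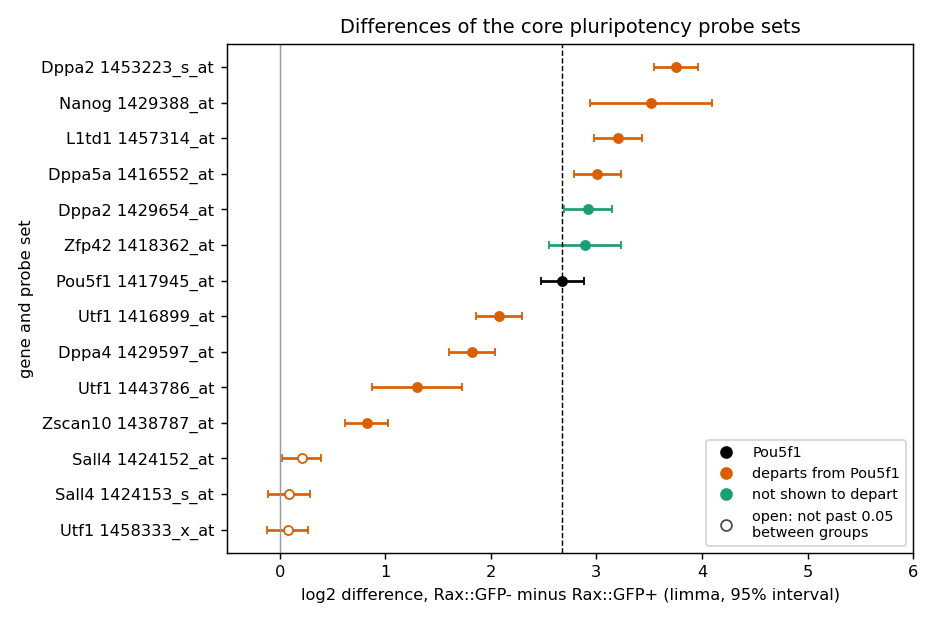
Log2 difference between Rax::GFP- and Rax::GFP+ cells (x axis) of each of the 14 probe sets of the core pluripotency genes (y axis), with the 95% interval from limma as a bar and the difference of Pou5f1, 2.67, as a dashed line. Orange marks a departure from Pou5f1, green none shown, and open circles a difference between the groups that did not pass. The probe sets of Sall4 and Zscan10 lie far to the left of that line, and those of Utf1 and Dppa2 spread along the axis.

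How much RNA remained in GFP+ cells depends on where a probe set reads without its target. As a rough guide, chosen after the values were seen, 43 probe sets of olfactory receptor genes, which are used in the nose, had medians of 4.01 and 3.79 in GFP- cells, against 3.75 and 3.90 in GFP+ cells. Their 95th percentile was 5.40 and 5.39 in GFP- cells, against 5.20 and 5.39 in GFP+ cells. In GFP+ cells both Dppa2 probe sets fell below that percentile, so their GFP+ values were in the range of these olfactory receptor probe sets. The GFP+ values of Utf1 at 1443786_at lay around it, and Utf1 at 1458333_x_at lay below it in both groups. Nanog and Zfp42 lay above it on both GFP+ arrays. On GFP+ replicate 2, however, Nanog (5.66) was close to that percentile (5.39) and below the array median (5.88). Pou5f1, Dppa5a, L1td1, Dppa4, Zscan10 and both Sall4 probe sets lay higher still, by about 2 or more on the log2 scale. Each probe set has a background of its own, which these arrays do not give, and signal that does not come from the target raises the share given for GFP+ cells and lowers the difference.

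The promoters of the members were set beside these levels. RefSeq windows (GRCm38.p6) were held for 6 of the 10 genes. Each was searched on both strands for the POU octamer core TTTGCAT, the Sox site ACAATG and the GC box GGGCGG. The 250 bases before the start are printed for Nanog, whose difference was larger than that of Pou5f1, for Zfp42, which was not shown to depart, for Pou5f1 itself and for Zscan10, the called gene with the smallest difference. Capitals mark POU and Sox sites, and positions count from the first base of the transcript as 0. The windows are chr6:122707239-122707488 on the plus strand for Nanog, chr8:43307010-43307259 on the minus strand for Zfp42, chr17:35505782-35506031 on the plus strand for Pou5f1 and chr17:23600576-23600825 on the plus strand for Zscan10.
Nanog: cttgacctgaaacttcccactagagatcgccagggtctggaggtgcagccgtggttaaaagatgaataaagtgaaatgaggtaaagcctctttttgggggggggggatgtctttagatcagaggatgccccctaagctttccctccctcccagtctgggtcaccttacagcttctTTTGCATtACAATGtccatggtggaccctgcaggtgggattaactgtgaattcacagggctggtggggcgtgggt
Zfp42: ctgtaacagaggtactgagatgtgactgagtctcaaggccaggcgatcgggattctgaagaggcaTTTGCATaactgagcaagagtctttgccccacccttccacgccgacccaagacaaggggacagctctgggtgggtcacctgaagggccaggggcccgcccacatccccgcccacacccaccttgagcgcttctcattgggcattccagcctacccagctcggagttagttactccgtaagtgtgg
Pou5f1: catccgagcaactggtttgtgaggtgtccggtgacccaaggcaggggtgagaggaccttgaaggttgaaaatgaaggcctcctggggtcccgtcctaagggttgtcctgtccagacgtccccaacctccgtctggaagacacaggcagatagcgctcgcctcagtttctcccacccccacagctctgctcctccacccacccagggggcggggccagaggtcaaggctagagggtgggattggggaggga
Zscan10: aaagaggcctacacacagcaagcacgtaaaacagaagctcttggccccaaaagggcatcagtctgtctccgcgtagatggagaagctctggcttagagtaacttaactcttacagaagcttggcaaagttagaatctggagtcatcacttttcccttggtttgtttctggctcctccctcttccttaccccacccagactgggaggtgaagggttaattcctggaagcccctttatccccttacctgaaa

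Nanog held a POU site at -75 to -69 and a Sox site at -67 to -62, 1 base apart. This spaced pair was found in 2 of 32851 windows of the same table (0.00609%), both of them overlapping windows of Nanog. Zfp42 held a POU site at -185 to -179 and GC boxes at -91 to -86 and -79 to -74, the boxes on the strand opposite to the printed one. The Pou5f1 window held a GC box at -45 to -40 and neither a POU nor a Sox site, and a second Pou5f1 start had a Sox site at -158 to -153. Utf1 held 4 GC boxes, of which a pair overlapped by 1 base, and Zscan10 and L1td1 held none of the motifs. Of all windows 4.63% held the POU site, 12.6% the Sox site and 35.7% the GC box. A match of these letters is a description and no evidence of binding, and enhancers lie outside these windows.

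The genes whose levels over the 4 arrays were most like those of Pou5f1 were found by the distance between profiles, each centred on its own mean. Of 18193 other genes the nearest was Cdh1, which encodes E-cadherin, the cell adhesion protein of ESCs and epiblast, with a distance of 0.11 and a difference of 2.60. It read 11.99 and 11.97 in GFP- cells, against 9.42 and 9.35 in GFP+ cells. Mageb16 (difference 2.62), Dmrt1, a DM-domain factor of the germ line (2.52), Cxcl12, a chemokine (2.77), and Upp1, a uridine phosphorylase (2.78), came next. The nearest members were Dppa2, in place 12, Zfp42, in place 18, and Dppa5a, in place 21, so that non-members lay nearer to Pou5f1 than any member did. L1td1 was in place 45, Utf1 55, Dppa4 105, Nanog 114, Zscan10 537 and Sall4 3721. Dppa2 was placed by its probe set 1429654_at, while 1453223_s_at had a difference of 3.75. In GFP+ cells Dppa2, Mageb16 (5.06 and 4.89) and Cxcl12 (4.74 and 4.85) lay in the range of the olfactory receptor probe sets. Their differences may therefore be too small, and their places carry that limit. The measure rests on 4 arrays and mostly on the size of the difference.

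The wider network changed in part. Of 25 measured genes of a pluripotency network list without the members, 10 were higher in GFP- cells and 0 lower, with a median difference of 0.27, against 0.05 over all genes. Tdgf1, the Nodal co-receptor Cripto, read 8.13 and 7.71 in GFP- cells, against 4.87 and 4.76 in GFP+ cells (difference 3.10, limma adjusted p = 0.00638). Fbxo15, an F-box gene of ESCs, differed by 2.63 and Nr0b1, the orphan receptor Dax1, by 2.24. The GFP+ values of Tdgf1 and Nr0b1 (4.12 and 4.39) lay in the range of the olfactory receptor probe sets, so their differences may be too small. Sox2, the partner of Pou5f1 and also a factor of neural progenitors, read 12.86 and 12.90 in GFP- cells, against 13.06 and 13.18 in GFP+ cells, and its difference of -0.24 did not pass (adjusted p = 0.148). Trim28, a corepressor, had a difference of 0.12 (adjusted p = 0.378). Like the most expressed Sall4 probe set, those of Sox2 and Trim28 read above 12 on all 4 arrays.

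Genes of naive pluripotency, the state of the preimplantation epiblast, were called in 5 of 12 cases, all higher in GFP- cells, with a median of 0.74. Tbx3 differed by 2.16, Tcl1 by 1.94 and Klf2 by 1.82, and all 3 are regulators of ESC self-renewal. The GFP+ values of Tbx3 (4.40 and 4.43) and Tcl1 (4.40 and 4.41) lay in the range of the olfactory receptor probe sets. The differences of these genes may therefore be too small. Klf4 read 8.47 and 8.50 in GFP- cells, against 8.31 and 6.97 in GFP+ cells, so that its GFP+ arrays disagreed (difference 0.84, limma adjusted p = 0.320), and Stat3, the effector of LIF, had a difference of 0.02 (adjusted p = 0.927). Of 13 genes of the later epiblast, 8 passed as higher in GFP- cells and 1, Sox3, as lower, with a median of 0.87. Fgf5, the usual marker of that stage, read 10.09 and 10.22 in GFP- cells, against 6.69 and 6.64 in GFP+ cells, and its difference of 3.49 was about that of Nanog. Etv5, a target of Fgf signalling, differed by 3.37 and Epcam, an adhesion molecule, by 2.89. Otx2 (-0.06) and Pou3f1 (0.41), factors of both epiblast and neuroectoderm, did not pass (adjusted p = 0.700 and 0.0514). The lists of naive and epiblast genes were both higher in GFP- cells in part, and the difference between the lists was not tested. Some genes, such as Tcl1 and Dnmt3b, stand in more than 1 list.

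Most genes related to the members by sequence or by name did not pass in either direction. Of 11 measured, 1 was higher and 2 were lower in GFP- cells, with a median of 0.04. Sall2 read 11.69 and 11.63 in GFP- cells, against 12.20 and 12.28 in GFP+ cells (difference -0.58, limma adjusted p = 0.0279). Sall3 differed by -0.72 (adjusted p = 0.0180). These spalt genes were thus lower in GFP- cells while Sall4 was not called. Dppa3 (Stella), named with Dppa2 and Dppa4 but unrelated to them in sequence, differed by 0.92 (adjusted p = 0.0290). Its GFP+ values (4.60 and 4.89) lay in the range of the olfactory receptor probe sets. Yy1, the relative of Zfp42, had a difference of 0.12 (adjusted p = 0.420).

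Some markers of other cell types were also higher in GFP- cells, most often those of endoderm. The part of such cells in the members' differences was not tested. Of 12 endoderm genes, 8 passed as higher in GFP- cells and 1, Foxa1, as lower, with a median of 1.99. Sox17, an endoderm factor, differed by 3.09, Ttr, a carrier protein of visceral endoderm, by 2.48, and Amn, an apical receptor subunit of visceral endoderm, by 2.36. Afp, which is made by visceral endoderm, read 7.35 and 7.32 in GFP- cells, against 3.90 and 6.48 in GFP+ cells (difference 2.15, limma adjusted p = 0.208), and Cxcr4 had a difference of -0.05 (adjusted p = 0.941). The summed linear level of the list was 6237 and 6868 in GFP- cells, against 1996 and 2412 in GFP+ cells.

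Of 8 germ cell genes, chosen since the germ line also expresses several members, 4 passed as higher in GFP- cells and 1, Prdm1, as lower, with a median of 0.70. Mael differed by 1.94, Ddx4 by 1.31 and Tfap2c by 0.86, while Kit (0.59) and Dnd1 (0.42) did not pass (adjusted p = 0.0747 and 0.0532 from limma). In GFP+ cells Mael, Ddx4 and Tfap2c lay in the range of the olfactory receptor probe sets, so their differences may be too small. The summed level was 760 and 755 in GFP- cells, against 518 and 456 in GFP+ cells. Of 9 mesoderm and primitive streak genes, 2 were higher, Eomes by 2.48 and Evx1 by 0.45, with a median of 0.45, while Mixl1 (0.53) and Mesp1 (0.15) did not pass (limma adjusted p = 0.353 and 0.408). That list summed to 711 and 549 in GFP- cells, against 255 and 278 in GFP+ cells. Of 8 trophoblast genes, 1 was higher, Krt7 by 0.45, with a median of 0.12. All values of Krt7 and Evx1 lay within the range of the olfactory receptor probe sets. Krt8 (0.47) and Krt18 (0.35) did not pass (limma adjusted p = 0.0578 and 0.0680). The sums of this list were 3045 and 3317 in GFP- cells, against 2448 and 2446 in GFP+ cells. Such sums follow the brightest genes of a list. In GFP- cells most of the trophoblast sum came from Krt8 and Krt18, most of the germ cell sum from Kit and most of the streak sum from Eomes. Of these only Eomes passed.

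The early and rostral neural lists mostly ran the other way, while the caudal neural gene Irx3 was higher in GFP- cells (2.59). Over the whole array 3367 of 45101 probe sets passed in either direction. Of 16 early neural genes 2 were higher and 8 lower in GFP- cells, with a median of -0.66. Nr2f2 differed by -2.17 and Nr2f1 by -1.92, and Fabp7, a fatty acid binding protein of radial glia that is also expressed outside neural tissue, by 2.58. Sox11 (-0.31) did not pass (limma adjusted p = 0.0941). Of 7 rostral neural genes 0 were higher and 5 lower, with a median of -1.48, among them Lhx2 (-1.80) and Six6 (-1.50) besides Rax, which the sort used. In GFP- cells Six6 (5.17 and 4.95) lay in the range of the olfactory receptor probe sets. Fezf2 (-0.16) and Hesx1 (-0.57) did not pass (adjusted p = 0.262 and 0.0936).

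**Figure D4:**
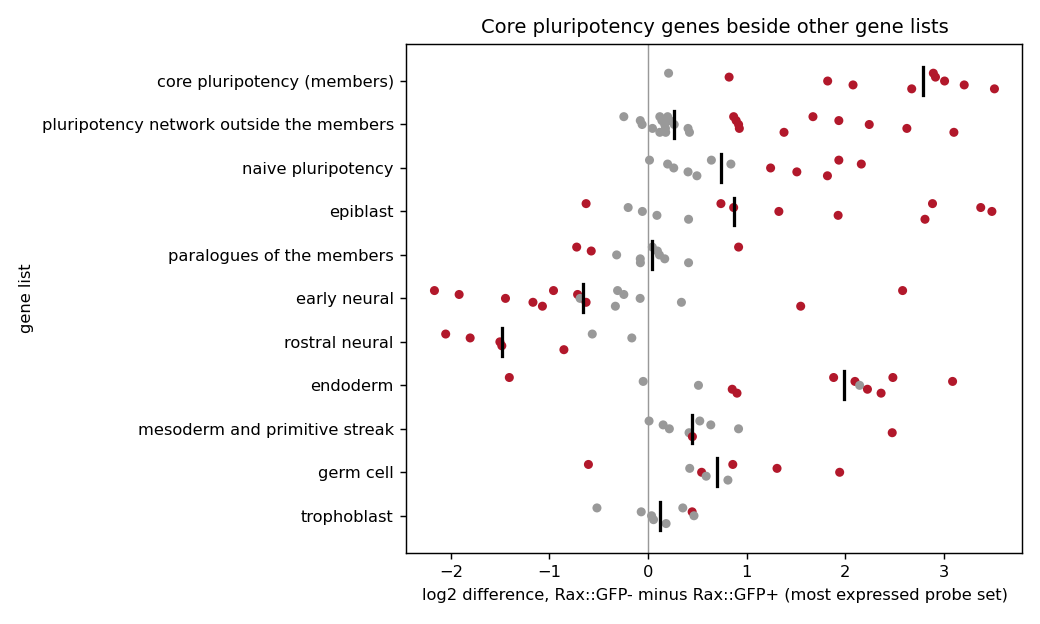
Log2 difference between Rax::GFP- and Rax::GFP+ cells (x axis) of every measured gene in the 10 gene lists and of the core pluripotency genes (y axis), with 1 point per gene by its most expressed probe set, red where limma's adjusted p was under 0.05 and grey where it was not, and a bar at each list's median. The core pluripotency genes have a median of 2.78, the pluripotency network without them 0.27 and the rostral neural genes -1.48.

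How many members passed with 1 array left out depended on the group it came from. Without a GFP- array, the spread came from the GFP+ pair alone. The standard deviation over probe sets of the difference between paired replicates was 0.23 in GFP+ cells and 0.19 in GFP- cells. The loss of calls therefore does not describe the GFP- values themselves. Without GFP- replicate 1, 0 of 14 member probe sets passed limma after adjustment (lowest adjusted p = 0.0937), and without GFP- replicate 2 again 0 passed (lowest adjusted p = 0.105), as did 0 probe sets on the whole array in either case. At an unadjusted p under 0.05 there were 11 of 14 member probe sets in both cases. The differences themselves moved little, from 2.63 to 2.72 for Pou5f1 over the 4 fits with 1 array left out and from 3.23 to 3.80 for Nanog. With GFP+ replicate 1 left out, 10 of the 14 passed, and with GFP+ replicate 2 left out, 11 passed.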

How the data were processed

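RNA of sorted Rax::GFP- and Rax::GFP+ cells was hybridized to 4 Affymetrix arrays, 2 per group, which the study calls biological duplicates. The values deposited by the authors are log2 values made by RMA, with 1 for each probe set on each array; R 2.13.0 is named in the submitters' processing notes. Arrays give no read depth, and their small number limits the precision. Columns came from the series' value table, and gene names from GEO's annotation of the platform, which gives 34958 probe sets a single symbol. Each of the 18194 genes so named was read at the probe set with the highest mean over the 4 arrays.

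From these values limma 3.58.1 in R 4.3.3 was fitted over all 45101 probe sets, including 64 control probe sets, by group alone, with moderated p-values adjusted over all probe sets (Benjamini-Hochberg, threshold 0.05). The residual degrees of freedom were 2, to which limma added 2.52 from its prior. The same fit was run on values minus the Pou5f1 probe set of each array. The fit was tested on simulated data. Shares of the GFP- level are 2 to the power of minus the log2 difference. Named were all members, the sort markers Rax, Six3 and Irx3, the 5 genes nearest to Pou5f1, and of each list up to 3 called genes with the largest differences and the 2 most expressed that did not pass. Sox3, Foxa1 and Prdm1 were named after their values were seen. The members and lists were chosen with earlier results of these data known. Alternatives were a replicate block, a filter on dim probe sets (2 or more arrays had to reach a log2 value of 5), median centring, an intensity trend, Storey's q-value, the mean of a gene's probe sets, and leaving out each array, where a group of 1 array took its spread from the other. Sequences are from RefSeq. The mean of several Pou5f1 probe sets as comparator was not run, since Pou5f1 has 1.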

Additional observations from a re-analysis of the deposited data

How the results depend on the processing

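No result changed direction under any alternative run. With the replicate block, 0 of 45101 probe sets passed limma, against 3367 without it, and with them 0 member probe sets and 0 member genes (smallest adjusted p = 0.0567). At an unadjusted p under 0.05 the block left 11019 probe sets, 11 of the 14 members among them, against 12023 and 12 members without it. Same-numbered arrays did not deviate together (r = -0.05 over probe sets), which cannot decide whether they were paired. The study describes pools of GFP+ or GFP- cells from the aggregates of each experiment, so a pairing is possible. Which arrays share a sort is not stated. All 7 departures from Pou5f1 passed with the block. There limma gave every member probe set the same SE (0.16), so the fit did not use each one's own spread. It is therefore no check on the departures. The count over all probe sets was 6962 with an intensity trend and 6163 with Storey's q-value. With 1 array left out it ran from 0 to 2978, that of member probe sets from 0 to 11, that of member genes from 0 to 9, and that of departures from Pou5f1 from 6 to 7. The zeros are the fits without a GFP- array, in which 7704 (without replicate 1) and 7697 (without replicate 2) probe sets had an unadjusted p under 0.05. Among single members, the intensity trend added a Sall4 call, and the filter on dim probe sets added a Dppa2 departure (adjusted p = 0.0340). Storey's q-value put both Dppa2 and Zfp42 past the threshold against Pou5f1. It scales p-values by the share of probe sets taken as unchanged. Against Pou5f1, 99.8% of all probe sets had a smaller difference, so that share was close to none. These 2 passes therefore say nothing about Dppa2 or Zfp42. The arrays give no probe-level background, so the GFP+ levels of Dppa2 and of the dimmer Utf1 probe sets may be background, and that of Nanog may be so in part.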
